A study of Mus musculus with 4 samples.

Results

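The Hox cluster genes are the homeobox genes of the HoxA, HoxB, HoxC and HoxD clusters. They were chosen by name alone, as protein-coding genes of the GENCODE vM1 annotation of the mouse genome (build mm9) called Hoxa, Hoxb, Hoxc or Hoxd with a number. This gave 39 genes of 22367 protein-coding genes, with 11 in HoxA, 10 in HoxB, 9 in HoxC and 9 in HoxD. Hoxa3 carries 2 gene identifiers, and the one with the longer coding sequence was used. The study mapped acetylation of histone H3 by ChIP-seq in untreated mouse embryonic stem (mES) cells. The labels give the line E14, strain 129P2/OlaHsd, at passage 25-30, while by the methods the wild type ES cells came from blastocysts and were grown with LIF, first on feeder cells and then without them. H3K9ac was precipitated with a rabbit polyclonal antibody (ab4441), and H3K14ac with the mouse monoclonal antibodies 13HH3 and 7G8, while input was DNA that had not been precipitated. Each of the 4 libraries is a single sample, so no replicate error can be given, no test between conditions was possible, and every interval below covers counting error only.

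Hox genes encode transcription factors that give cells their position along the head to tail axis. Genes of paralogue groups 1 to 4 are called anterior here, groups 5 to 8 central and groups 9 to 13 posterior, and in the embryo anterior members are switched on before posterior ones. In ES cells the clusters are largely silent and are known for carrying an active and a repressive histone mark together, H3K4me3 and H3K27me3, a state called bivalent. Acetylation of H3K9 and of H3K14 is a mark of active promoters and enhancers. Retinoic acid, a vitamin A derivative, induces Hox genes through receptors that bind response elements in the clusters.

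After repeated tags were removed, the libraries held 19313142 tags for input, 21626227 for 13HH3, 23181544 for H3K9ac and 23837354 for 7G8. A tag is 1 mapped read, and tags were counted within 2 kb on each side of the transcription start site (TSS). The labelled cell type was checked at 8 ES cell markers, of which 7 had at least 2-fold more H3K9ac than input, with Esrrb as the exception at a log2 ratio of 0.74. Of 8 fibroblast markers, which feeder cells would carry, 1 was past 2-fold (Prrx1, log2 ratio 1.12). Past 2-fold were also 54.5% of all protein-coding TSSs and 89.8% of the CpG-rich TSSs used below. A count of 7 of 8 is thus not particular to ES cell markers. H3K9ac at the 8 fibroblast markers had a median log2 ratio of 0.65 and ran from -0.50 to 1.12. None of these was at 0 tags, and their part in the Hox values was not tested. In such bulk samples a low level in all cells and a high level in a few cells cannot be told apart.

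H3K9ac was enriched at most Hox genes, but moderately. Of the 39 members, 28 had at least 2-fold more H3K9ac than input (tags per 10000000 plus 1 in each library), beside 54.5% of all protein-coding TSSs. The median log2 ratio on this scale was 1.23 for the members and 1.19 for all TSSs. It was 2.05 for the 5641 CpG-rich TSSs and 1.84 for the 14391 other TSSs with an H3K9ac peak. That last set was chosen by H3K9ac in the same library, and the members were not, so its higher value is partly built in. The members lay close together. The middle 50% of them spanned log2 ratios of 0.96 to 1.46, whereas that of all TSSs spanned 0.01 to 2.10. In lists described below it was also narrower than for all TSSs. It spanned 0.66 to 1.27 at 8 homeobox genes outside the clusters and 0.77 to 1.59 at 18 genes of the retinoic acid pathway. Of the 39 members, 38 were below the median of CpG-rich TSSs, a class that held 16 of the members. The share of all TSSs below that median of 2.05 was not counted. Their upper quartile of 2.10 lay close to it, so most TSSs were below it as well. An exact interval of the ratio lay above 0 at 36 members, with Hoxb3, Hoxc8 and Hoxd4 as the exceptions, compared with 63.8% of all TSSs.

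The 13HH3 and 7G8 libraries of H3K14ac differed from each other at Hox genes. Each antibody was used in a single library, so antibody and library cannot be told apart. With 13HH3, 7 of 39 members were at least 2-fold over input, a share close to the 14.5% of all TSSs, and all 7 were in HoxA (3) and HoxD (4). This count was 11 with scaling by the median 10 kb bin (17.8% of all TSSs) and 3 with a pseudocount of 3 (11.6%). With 7G8 no member reached 2-fold, while 14.6% of all TSSs did. The median log2 ratio of 13HH3 over input was 0.54 at the members and 0.32 at all TSSs, and that of 7G8 was 0.22 and 0.31. Exact intervals lay above 0 at 18 members for 13HH3, compared with 32.5% of all TSSs, and at 6 members for 7G8, compared with 31.5%. They included Hoxa5, Hoxa7, Hoxb4, Hoxd10 and Hoxd13.

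**Figure D1:**
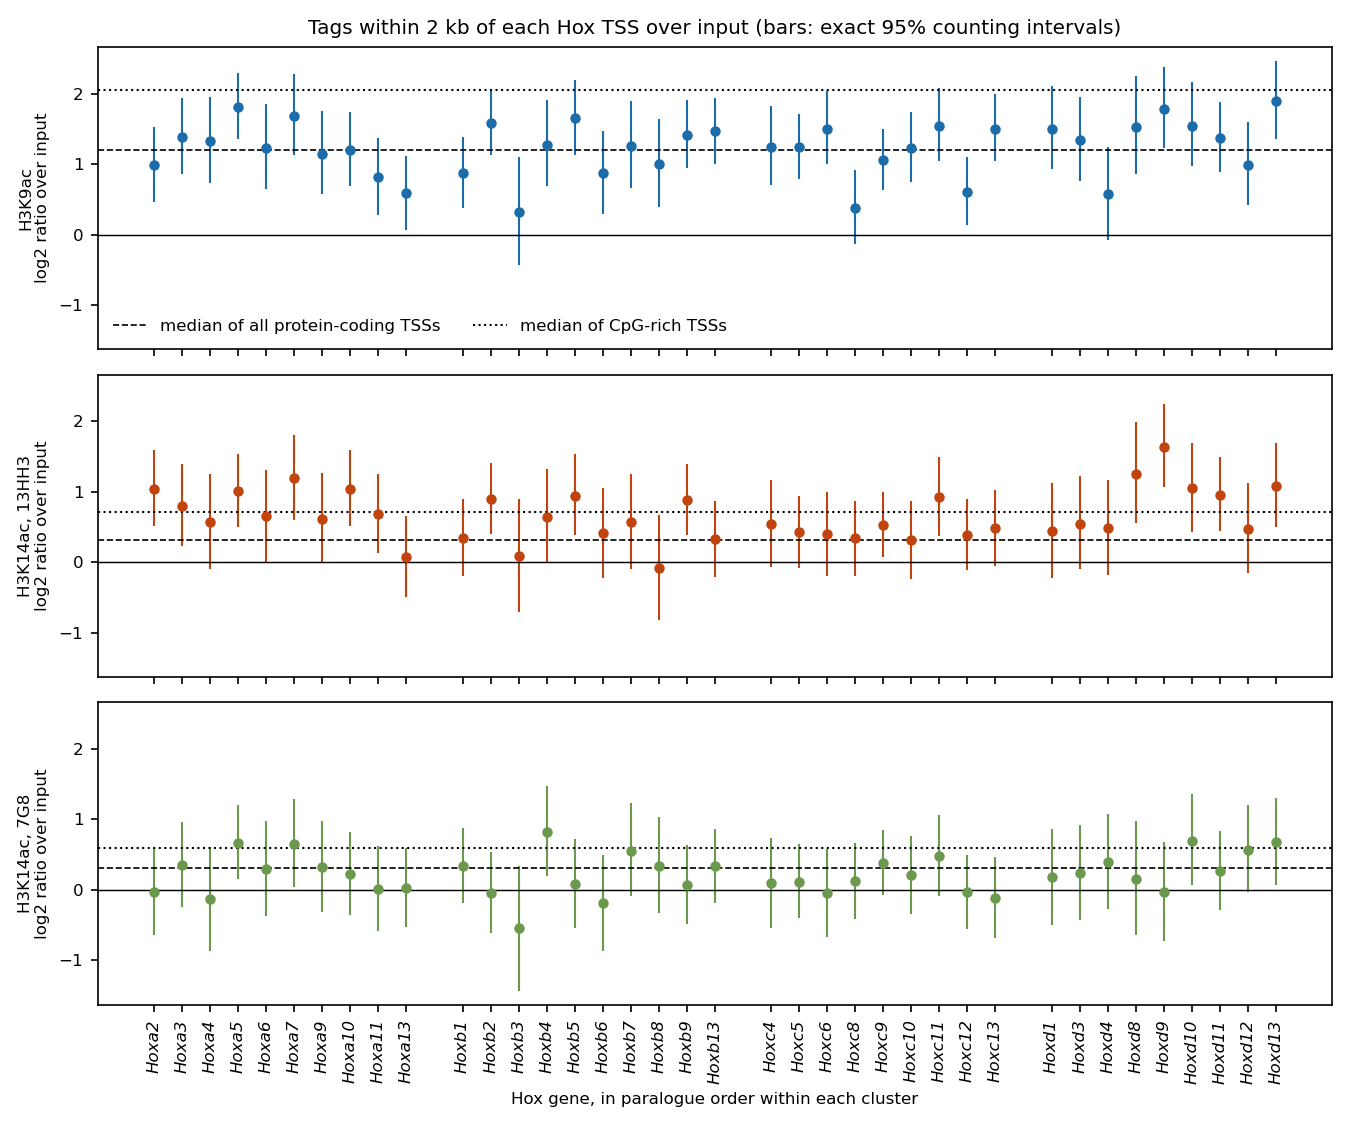
Log2 ratio of tags over input within 2 kb of the TSS (vertical axis) for 38 Hox genes in paralogue order (horizontal axis), with H3K9ac, 13HH3 and 7G8 from top to bottom. Points are ratios of 1 library to input, bars are exact 95% counting intervals, and dashed and dotted lines are the medians of all and of CpG-rich TSSs (with the pseudocount); for H3K9ac all 38 points lie below the dotted line, and for 7G8 most intervals cross 0.

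Over all 39 windows together, which cover 154352 bp once overlaps are joined, H3K9ac had 4622 tags, 13HH3 2848, 7G8 2325 and input 1577. The log2 ratio over input, corrected for depth, was 1.29 for H3K9ac (95% interval 1.21 to 1.37), 0.69 for 13HH3 (0.60 to 0.78) and 0.26 for 7G8 (0.16 to 0.35). All 3 ratios were above 0 and their intervals did not overlap. The log2 ratio of 7G8 to 13HH3 was -0.43 (-0.51 to -0.35), and that of 13HH3 to H3K9ac was -0.60 (-0.67 to -0.53). Gene by gene, 7G8 had fewer tags per 10000000 than 13HH3 at 35 of 39 members, compared with 50.2% of all TSSs. The median log2 ratio of 7G8 to 13HH3, with the pseudocount, was -0.40 at the members, -0.0028 at all TSSs and -0.12 at CpG-rich TSSs. It was also below 0 in some other lists, at -0.43 for the ES cell markers and -0.34 for the TALE cofactors, which are homeodomain partners of Hox proteins. For the retinoic acid pathway it was -0.28 and for the fibroblast markers -0.11. It was 0.00 for 8 homeobox genes outside the clusters, namely Cdx1, Cdx2, Cdx4, Evx1, Evx2, Gsx1, Gsx2 and Pdx1. For 6 trithorax genes, which maintain Hox expression, it was 0.15. The exact interval of 7G8 over 13HH3 lay below 0 at 12 members (10.9% of all TSSs) and above 0 at none (8.13% of all TSSs).

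Relative to H3K9ac, the median of H3K14ac at the members was above that of CpG-rich TSSs for both antibodies, and above that of all TSSs for 13HH3. Over input, however, the median at the members was below that of CpG-rich TSSs for both antibodies. It was 0.54 against 0.71 for 13HH3 and 0.22 against 0.59 for 7G8, while H3K9ac was at 1.23 against 2.05. The median log2 ratio of 13HH3 to H3K9ac was -0.56 at the members, -0.85 at all TSSs, -1.36 at CpG-rich TSSs and -1.32 at the other TSSs with an H3K9ac peak. It was -0.64 at the 8 homeobox genes outside the clusters and -0.37 at the 8 fibroblast markers. Less 13HH3 than H3K9ac was found at 38 of the 39 members and at 75.6% of all TSSs, and the exact interval lay below 0 at 29, compared with 60.2% of all TSSs. For 7G8 the median ratio to H3K9ac was -1.0 at the members, -0.99 at all TSSs and -1.47 at CpG-rich TSSs. It was -1.34 at the other TSSs with an H3K9ac peak. That last set was chosen by a peak in the same H3K9ac library, and the members were not. High H3K9ac lowers both ratios, so their lower values in that set are partly built in.

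Values of single genes below are tags within 2 kb of the TSS and log2 ratios corrected for depth, with no pseudocount and with exact 95% intervals, except where the pseudocount is named.

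In HoxA the ratio of 13HH3 to H3K9ac was highest at Hoxa2, which patterns the hindbrain and branchial arches. It had 102 tags of H3K9ac, 99 of 13HH3, 52 of 7G8 and 43 of input. Within 2 kb it was the only member at which 13HH3 equalled or exceeded H3K9ac. The log2 ratio was 0.06 (-0.36 to 0.47), an interval that includes equality. The intervals at Hoxc8 (-0.52 to 0.42) and Hoxd4 (-0.67 to 0.48) included it as well. Different antibodies gave the tags, so equal tags do not mean equal levels of the marks. Within 1 kb, with the pseudocount, the ratio was 0.22 at Hoxa2. There 13HH3 also exceeded H3K9ac at Hoxd4 (0.16), Hoxc8 (0.12), Hoxd9 (0.06) and Hoxa10 (0.05). Scaling by the median 10 kb bin raised H3K9ac by 0.38 and 13HH3 by 0.10, and 13HH3 was then below H3K9ac at Hoxa2.

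Hoxa7, a central gene of the vertebral column, had the highest ratio of 13HH3 over input in HoxA, with 131 tags of H3K9ac, 87 of 13HH3, 66 of 7G8 and 34 of input. Its log2 ratio of 13HH3 over input was 1.19 (0.61 to 1.81). Within 1 kb, with the pseudocount, this ratio was 1.18 at Hoxa7 and higher at Hoxa6 (1.27) and Hoxa2 (1.25). Hoxa5, which is required in the developing lung, had the most H3K9ac tags of any member, 202 against 48 of input, with a log2 ratio of 1.81 (1.35 to 2.30). Hoxa13, the last gene and a regulator of digits and the urogenital tract, was the lowest of the cluster in the ratios of H3K9ac and 13HH3, with 90 tags of H3K9ac, 59 of 13HH3, 63 of 7G8 and 50 of input. The H3K9ac ratio of Hoxa13 was 0.58 (0.07 to 1.11), and 13HH3 and 7G8 were at 0.08 (-0.49 to 0.65) and 0.03 (-0.53 to 0.60), not distinguishable from input at this depth. Within 1 kb of the TSS, with the pseudocount, Hoxa13 was at 1.38 for H3K9ac, 0.81 for 13HH3 and -0.27 for 7G8.

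In HoxB the highest ratios of H3K9ac and of 13HH3 over input within 2 kb were both at Hoxb5, which acts in the gut and neural crest. It had 147 tags of H3K9ac, 84 of 13HH3, 51 of 7G8 and 39 of input, that is a log2 ratio of 1.65 (1.13 to 2.20) for H3K9ac and 0.94 (0.38 to 1.53) for 13HH3. More tags of both were at Hoxb2, with 180 of H3K9ac and 104 of 13HH3 against 50 of input. Within 1 kb, with the pseudocount, the H3K9ac ratio was 1.57 at Hoxb9 and 1.40 at Hoxb5, and the 13HH3 ratio was 0.95 and 0.39. Hoxb4, known from blood stem cells, had the highest ratio of 7G8 of the cluster, with 93, 56, 70 and 32 tags in the same order of libraries. Its ratio of 7G8 over input was 0.83 (0.20 to 1.48). Within 1 kb of the Hoxb4 TSS the ratios, with the pseudocount, were -0.39 for H3K9ac and -0.062 for 7G8. The first gene, Hoxb1, which specifies facial motor neurons, had 110 tags of H3K9ac, 71 of 13HH3, 78 of 7G8 and 50 of input, and only its H3K9ac was separated from input, at 0.87 (0.38 to 1.39). The last, Hoxb13, which acts in the prostate and the tail end of the axis and lies apart from the others, had 172, 73, 81 and 52 tags and an H3K9ac ratio of 1.46 (1.01 to 1.94).

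Within 2 kb Hoxb3 had the lowest H3K9ac of all 39 members. It had 39 tags of H3K9ac, 31 of 13HH3, 22 of 7G8 and 26 of input. Its H3K9ac ratio of 0.32 (-0.43 to 1.10) was not distinguishable from input. Within 1 kb, with the pseudocount, the H3K9ac ratio was 0.07 at Hoxb3 and lower at Hoxd4 (-0.08) and Hoxb4 (-0.39). Hoxb3 has 4 annotated start sites, however. The start 17619 bp into the locus, at chr11:96202259, had 89 tags of H3K9ac, 64 of 13HH3, 52 of 7G8 and 27 of input. H3K9ac at that start had a log2 ratio of 1.46 (0.82 to 2.14), and 13HH3 had 1.08 (0.41 to 1.79). At the remaining starts H3K9ac was at 0.25 (-0.36 to 0.87) and 0.62 (0.07 to 1.18), and these intervals overlapped that of the highest start, which was chosen after its values were seen. Hoxd3 in HoxD had an H3K9ac ratio of 1.34 (0.76 to 1.95) at the chosen start, and its 5 alternative starts ranged from 0.05 to 1.91.

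In HoxC the highest ratios over input within 2 kb were at Hoxc11, a posterior gene of the hindlimb and kidney, with 147 tags of H3K9ac, 89 of 13HH3, 72 of 7G8 and 42 of input. The log2 ratios at Hoxc11 were 1.54 (1.04 to 2.07) for H3K9ac, 0.92 (0.38 to 1.49) for 13HH3 and 0.47 (-0.09 to 1.06) for 7G8. By tags Hoxc9 was higher for each antibody, with 165, 107 and 106, but it also had 66 of input. Within 1 kb, with the pseudocount, H3K9ac was higher at Hoxc13 than at Hoxc11, at 1.79 and 1.52, and 7G8 was higher at Hoxc9, at 0.69 against 0.17. Hoxc8, which patterns the thoracic skeleton, was the lowest for H3K9ac with 83, 75, 71 and 53 tags, and its H3K9ac ratio of 0.38 (-0.13 to 0.91) was not distinguishable from input. The 13HH3 ratio at Hoxc8 was close to that of H3K9ac, at 0.34 (-0.19 to 0.87). The first gene, Hoxc4, had 108, 62, 50 and 38 tags and an H3K9ac ratio of 1.24 (0.70 to 1.82). This value depended on the start site, since at the annotated 5′ end of the gene the Hoxc4 ratio was 0.03 (-0.57 to 0.63). The last gene, Hoxc13, a regulator of hair and nail, had 170, 78, 57 and 50 tags and an H3K9ac ratio of 1.5 (1.04 to 1.99).

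In HoxD the highest H3K9ac ratio was at Hoxd13, the last gene, which patterns the digits. It had 156 tags of H3K9ac, 83 of 13HH3, 69 of 7G8 and 35 of input. The log2 ratios of Hoxd13 were 1.89 (1.36 to 2.47) for H3K9ac, 1.08 (0.50 to 1.70) for 13HH3 and 0.68 (0.07 to 1.31) for 7G8, and all 3 libraries were above input. Hoxd9 had the highest 13HH3 ratio of all 39 members, with 136 tags of H3K9ac, 115 of 13HH3, 40 of 7G8 and 33 of input. Its 13HH3 ratio was 1.64 (1.07 to 2.24), and with the pseudocount it was 1.58, at a percentile of 96.6 among all TSSs. Its 7G8 ratio, however, was -0.03 (-0.73 to 0.68). The H3K14ac libraries thus differed most there, with a log2 ratio of 7G8 to 13HH3 of -1.66 (-2.22 to -1.13). Hoxd10, which acts in motor neurons of the hindlimb, had the highest 7G8 ratio of the cluster at 0.70 (0.06 to 1.36), from 112, 74, 64 and 32 tags. Within 1 kb, with the pseudocount, 7G8 was higher at Hoxd13 than at Hoxd10, at 0.74 and 0.25. Hoxd4 was the lowest for H3K9ac, with 57, 50, 52 and 32 tags and a ratio of 0.57 (-0.08 to 1.24). The first gene, Hoxd1, had 112, 50, 46 and 33 tags and an H3K9ac ratio of 1.5 (0.93 to 2.11).

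The members differ widely in CpG number within 1 kb of the TSS. The stretches from 250 bases to 1 base before the TSS are printed 5′ to 3′ on the strand of the gene, with CpG dinucleotides in capitals. They are those of the members with the highest ratio of 13HH3 and the lowest ratio of H3K9ac over input within 2 kb. They lie at chr2:74535487-74535736 (Hoxd9) and chr11:96184390-96184639 (Hoxb3), both on the plus strand of mm9.
Hoxd9: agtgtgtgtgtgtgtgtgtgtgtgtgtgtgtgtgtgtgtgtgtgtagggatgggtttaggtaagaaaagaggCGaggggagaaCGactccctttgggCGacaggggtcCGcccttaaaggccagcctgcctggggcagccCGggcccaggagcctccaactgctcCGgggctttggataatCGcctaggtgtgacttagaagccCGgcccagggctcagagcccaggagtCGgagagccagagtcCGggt
Hoxb3: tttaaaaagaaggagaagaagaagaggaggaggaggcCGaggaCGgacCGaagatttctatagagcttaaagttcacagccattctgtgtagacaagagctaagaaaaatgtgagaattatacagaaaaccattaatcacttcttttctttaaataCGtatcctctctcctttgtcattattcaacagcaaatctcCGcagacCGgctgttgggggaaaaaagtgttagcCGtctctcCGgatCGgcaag

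Neither stretch overlaps an annotated gene. The Hoxd9 stretch holds 10 CpGs and 61.2% G and C, and that of Hoxb3 9 CpGs and 42%, so just upstream of the TSS their CpG numbers were close. Within 1 kb on each side of the TSS there were 147 CpGs at Hoxd9 and 23 at Hoxb3. Over the 39 members the count ranged from 23 to 211 with a median of 84, beside a median of 61 for all TSSs, and 16 members were in the CpG-rich class, which held the 25.2% of all TSSs with 99 CpGs or more. Across members, counted within 1 kb of the TSS, CpG number and log2 ratio over input had a Spearman rho of 0.66 for H3K9ac, 0.72 for 13HH3 and 0.14 for 7G8 (Pearson r 0.63, 0.68 and 0.06). The clusters differed in this. In HoxA the rho was 0.30, -0.19 and -0.50, in HoxB 0.82, 0.48 and 0.65, in HoxC 0.37, 0.73 and 0.18 and in HoxD 0.65, 0.87 and 0.28, so the pooled value for 13HH3 did not hold in HoxA. Over all 22367 TSSs it was 0.72, 0.51 and 0.36. With tags counted within 2 kb the rho was 0.36, 0.42 and 0.04 over the members and 0.72, 0.50 and 0.37 over all TSSs. These are descriptions across 39 genes of the same libraries, which also share base composition between neighbours.

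Compared with TSSs of like CpG number, most Hox genes with 50 or more CpGs had less H3K9ac. All TSSs were put into 7 classes by CpGs within 1 kb, and here tags were also counted within 1 kb, with the pseudocount. Of the 39 members, 33 were below the H3K9ac median of their own class. For 7G8 this held for 34 members and for 13HH3 for 25. The 10 members with 50 to 74 CpGs had a median log2 H3K9ac ratio of 0.98, while the 3449 TSSs of that class had 2.07. With fewer CpGs it was otherwise, since the 2 members with up to 24 CpGs had a median of -0.01 against -0.22 of their class, and the 4 with 25 to 49 had 0.77 against 0.65. For the 5 members with 150 or more CpGs the values were 1.68 and 2.32. In that class 13HH3 was alike at the members and at all TSSs, at 1.07 and 1.09, whereas 7G8 was at 0.15 and 0.50.

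**Figure D2:**
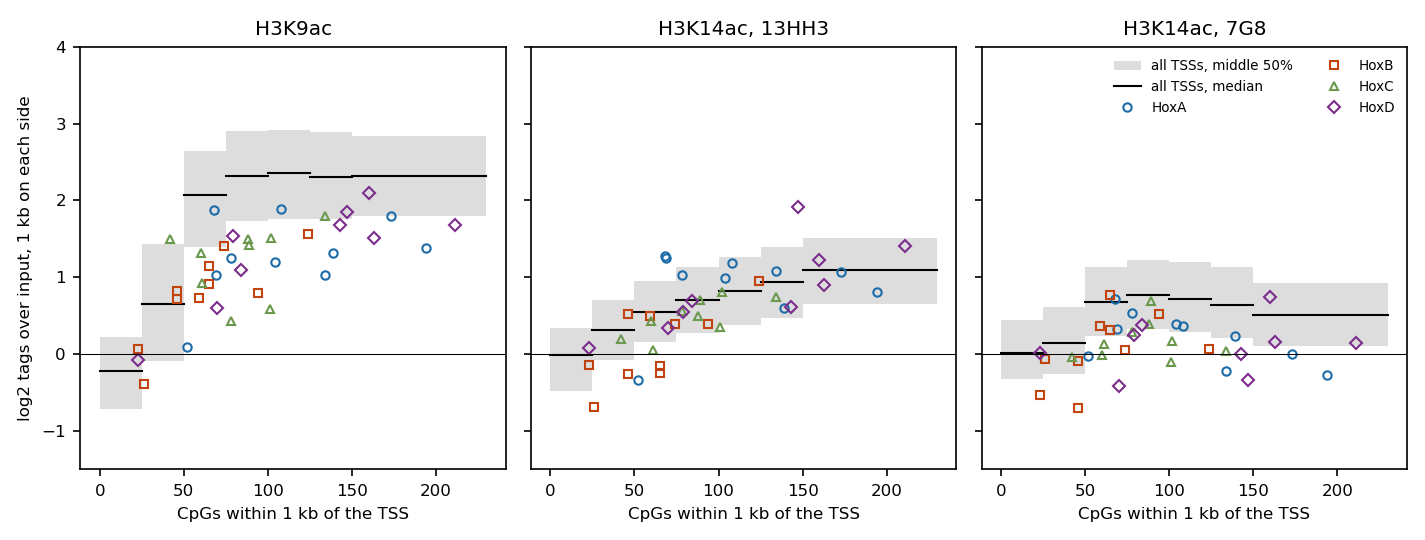
Log2 ratio over input within 1 kb of the TSS (vertical axis, pseudocount of 1 tag per 10000000) against the number of CpGs in the same window (horizontal axis) for H3K9ac, 13HH3 and 7G8. Symbols are 38 Hox genes by cluster, grey boxes the middle 50% of all TSSs in each CpG class and black lines their medians; 33 of the 38 lie below the line for H3K9ac and 25 for 13HH3.

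In sum the marks were higher downstream than upstream of the Hox TSSs. Summed over the 39 members, the 2 kb downstream of the TSS held 2868 tags of H3K9ac, 1829 of 13HH3 and 1350 of 7G8 against 852 of input, and the 2 kb upstream held 1793, 1038 and 997 against 738. The log2 ratio over input of H3K9ac was 1.49 (1.38 to 1.60) downstream and 1.02 (0.89 to 1.14) upstream. For 13HH3 it was 0.94 (0.82 to 1.06) and 0.33 (0.19 to 0.47). The difference between the sides was 0.47 for H3K9ac (0.30 to 0.64), 0.61 for 13HH3 (0.43 to 0.79) and 0.23 for 7G8 (0.05 to 0.41), with intervals from a normal approximation to the log counts. At the other TSSs with an H3K9ac peak the difference was smaller, 0.22 for H3K9ac (0.21 to 0.23), 0.29 for 13HH3 (0.28 to 0.30) and 0.01 for 7G8 (0.00 to 0.02). The intervals of Hox genes and other TSSs did not overlap. Downstream was higher than upstream at 26 of 39 members for H3K9ac, at 28 for 13HH3 and at 22 for 7G8, beside 56.7%, 58.8% and 49.7% of all TSSs. As shares, the members had 66.7%, 71.8% and 56.4%, and the other TSSs with an H3K9ac peak 63.1%, 63.9% and 52.1%, so by gene the members were close to these.

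Within the clusters, the difference between the sides for 13HH3 was 1.22 in HoxD (0.81 to 1.62), 0.63 in HoxC (0.28 to 0.98), 0.49 in HoxA (0.15 to 0.82) and 0.25 in HoxB (-0.11 to 0.61). The interval of HoxD did not overlap that of HoxB. For H3K9ac it was 0.80 in HoxD (0.43 to 1.17), 0.73 in HoxC (0.42 to 1.05), 0.25 in HoxA (-0.07 to 0.56) and 0.22 in HoxB (-0.11 to 0.55), and for 7G8 it was 0.44 (0.02 to 0.85), 0.46 (0.11 to 0.82), -0.13 (-0.48 to 0.22) and 0.26 (-0.11 to 0.64) in the same order. These values depend on input, which was also uneven. From upstream to downstream input went from 158 to 147 tags in HoxD, from 201 to 253 in HoxC, from 199 to 232 in HoxA and from 180 to 220 in HoxB. By tags alone, the log2 difference for H3K9ac was 1.07 in HoxC (0.89 to 1.24) and 0.70 in HoxD (0.51 to 0.89), so their order turned. In HoxB and HoxA it was 0.51 (0.34 to 0.68) and 0.47 (0.31 to 0.63), above 0 without division by input.

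In intervals of 200 bp the highest H3K9ac ratio at Hox TSSs was 3.31 times input (2.63 to 4.19), centred 500 bp downstream. Directly upstream, at -100 bp, it was 2.29 times (1.73 to 3.07). The other TSSs with an H3K9ac peak, a set chosen by H3K9ac in this library, had maxima on both sides. These were 5.70 times input at -300 bp and 5.48 times at 300 bp. For 13HH3 the highest Hox interval, again 500 bp downstream, was 2.46 times input, and for 7G8 the highest was 1.72 times, 1500 bp downstream. At -300 bp 13HH3 was 1.08 times input at Hox genes and 1.70 times at the other TSSs.

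**Figure D3:**
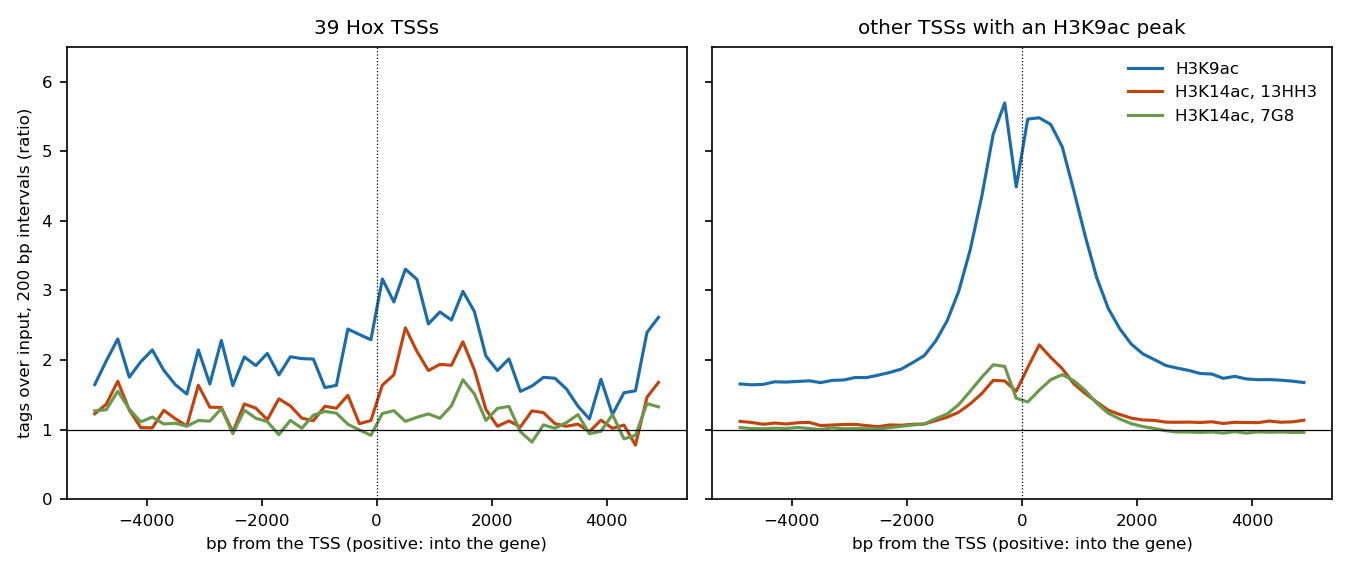
Ratio of tags over input, corrected for depth, in 200 bp intervals (vertical axis) by distance from the TSS (horizontal axis, bp, positive into the gene), for the 39 Hox TSSs on the left and the 14391 other TSSs with an H3K9ac peak on the right. Lines are sums over TSSs in single libraries; at Hox TSSs H3K9ac stays high from the TSS to about 1700 bp downstream, while at the other TSSs it falls off on both sides from maxima of 5.70 and 5.48.

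Peaks were called anew in each library against input. H3K9ac peaks lay within 2 kb of 36 members (64.5% of all TSSs), and Hoxb3, Hoxb6 and Hoxc8 had none. Peaks of 13HH3 were near 24 members (25.9% of all TSSs), namely 9 of 11 in HoxA, 4 of 10 in HoxB, 6 of 9 in HoxC and 5 of 9 in HoxD. At a Poisson p of 1e-10 the members with a peak were 9 for 13HH3 (7.21% of all TSSs) and 2 for 7G8 (4.28%). Peaks of 7G8 were near 6 members (21.6% of all TSSs), namely Hoxb4, Hoxc9, Hoxc10, Hoxc11, Hoxd12 and Hoxd13. All 6 also had peaks of the other antibodies. By position, 13 of 16 posterior, 6 of 11 central and 5 of 12 anterior genes had a 13HH3 peak.

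The clusters differed from one another as whole regions. Each was taken from its first to its last Hox TSS with 5 kb on each side, on chr6 for HoxA, and for HoxB at chr11:96050630-96232066, for HoxC at chr15:102746534-102869826 and for HoxD at chr2:74501367-74606037. The log2 ratio of H3K9ac over input was 1.12 in HoxD (1.00 to 1.24), 0.98 in HoxA (0.88 to 1.09), 0.92 in HoxB (0.84 to 1.00) and 0.76 in HoxC (0.67 to 0.85). For 13HH3 the order was the same, with 0.69 in HoxD (0.56 to 0.82), 0.47 in HoxA (0.36 to 0.59), 0.28 in HoxB (0.19 to 0.36) and 0.22 in HoxC (0.12 to 0.32). For 7G8 it was 0.37 (0.24 to 0.50), 0.17 (0.05 to 0.28), 0.12 (0.03 to 0.21) and -0.05 (-0.15 to 0.05).

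HoxD and HoxC were at the ends of this order for each antibody. HoxC minus HoxD was -0.36 (-0.51 to -0.21) for H3K9ac, -0.47 (-0.63 to -0.31) for 13HH3 and -0.42 (-0.58 to -0.25) for 7G8 on the log2 scale, with intervals from the normal approximation. These 3 comparisons use the same input library. The input itself was not even across the clusters, with 3.88 tags per 10000000 and kb in HoxD and 6.01 in HoxC, while H3K9ac was 8.44 in HoxD and 10.2 in HoxC. In tags per 10000000 and kb HoxC was the highest of the 4 clusters for each antibody, with 10.2 for H3K9ac (8.44 to 9.72 in the others), 6.98 for 13HH3 (6.16 to 6.83) and 5.81 for 7G8 (5.01 to 5.53). The low place of HoxC therefore appears only after division by input. HoxA and HoxD were not separated for H3K9ac, with a difference of -0.14 (-0.29 to 0.02), nor were HoxA and HoxB, with 0.07 (-0.06 to 0.20).

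Against the 50 kb on each side, the clusters together had a log2 ratio higher by 0.53 for H3K9ac (0.45 to 0.61) and by 0.19 for 13HH3 (0.11 to 0.27). For 7G8 the difference was 0.01 (-0.07 to 0.09). The 13HH3 difference was 0.31 in HoxC (0.16 to 0.46) and 0.31 in HoxD (0.12 to 0.50). It was not separated from 0 in HoxA, at 0.10 (-0.07 to 0.28), or in HoxB, at 0.07 (-0.08 to 0.22). The H3K9ac difference was 0.78 in HoxD (0.60 to 0.97), 0.77 in HoxC (0.62 to 0.91), 0.41 in HoxB (0.27 to 0.55) and 0.22 in HoxA (0.06 to 0.38). With flanks of 25 kb it was 0.41 in HoxA. Input itself was higher in HoxA than in its flanks, by 0.30 (0.17 to 0.44), and without division by input the H3K9ac difference was 0.52 (0.43 to 0.62) in HoxA and 0.35 (0.27 to 0.43) in HoxB, so the order of these clusters turned. H3K9ac peaks covered 20.3% of the HoxA region and 8.65% of its flanks, and 18.7% of the HoxD region and 2.70% of its flanks. For 13HH3 the covered share was 6.97% and 2.10% in HoxA, and 7.83% and 2.20% in HoxD.

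Inside the clusters the signal was not spread evenly. In 1 kb bins centred within 1 kb of a Hox TSS the log2 ratio of H3K9ac over input was 1.36 (1.25 to 1.48), and it was 1.23 (1.10 to 1.35) at 1 to 2 kb, 0.61 (0.52 to 0.70) at 2 to 5 kb and 0.80 (0.72 to 0.88) beyond 5 kb. For 13HH3 the values were 0.74 (0.62 to 0.86), 0.63 (0.50 to 0.77), 0.10 (0.00 to 0.19) and 0.30 (0.21 to 0.38). For 7G8 they were 0.20 (0.07 to 0.33), 0.35 (0.21 to 0.48), 0.07 (-0.02 to 0.16) and 0.04 (-0.04 to 0.13). HoxB ran the other way over the nearest bins, with H3K9ac at 0.96 (0.73 to 1.20) within 1 kb and 1.59 (1.35 to 1.84) at 1 to 2 kb, and 13HH3 at 0.17 (-0.10 to 0.43) and 0.97 (0.71 to 1.23). H3K9ac and 13HH3 were higher beyond 5 kb than at 2 to 5 kb over all clusters, where 93 of the 191 bins beyond 5 kb are in HoxB. For H3K9ac this held in each cluster, though the intervals overlapped within each. It went from 0.66 to 0.75 in HoxA, 0.71 to 0.84 in HoxB, 0.37 to 0.66 in HoxC and 0.82 to 0.96 in HoxD. For 13HH3 it held in HoxB, HoxC and HoxD, and most in HoxD, at 0.24 (-0.01 to 0.50) and then 0.77 (0.55 to 1.00). In HoxA 13HH3 was at 0.24 (0.05 to 0.43) and then 0.11 (-0.14 to 0.36).

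**Figure D4:**
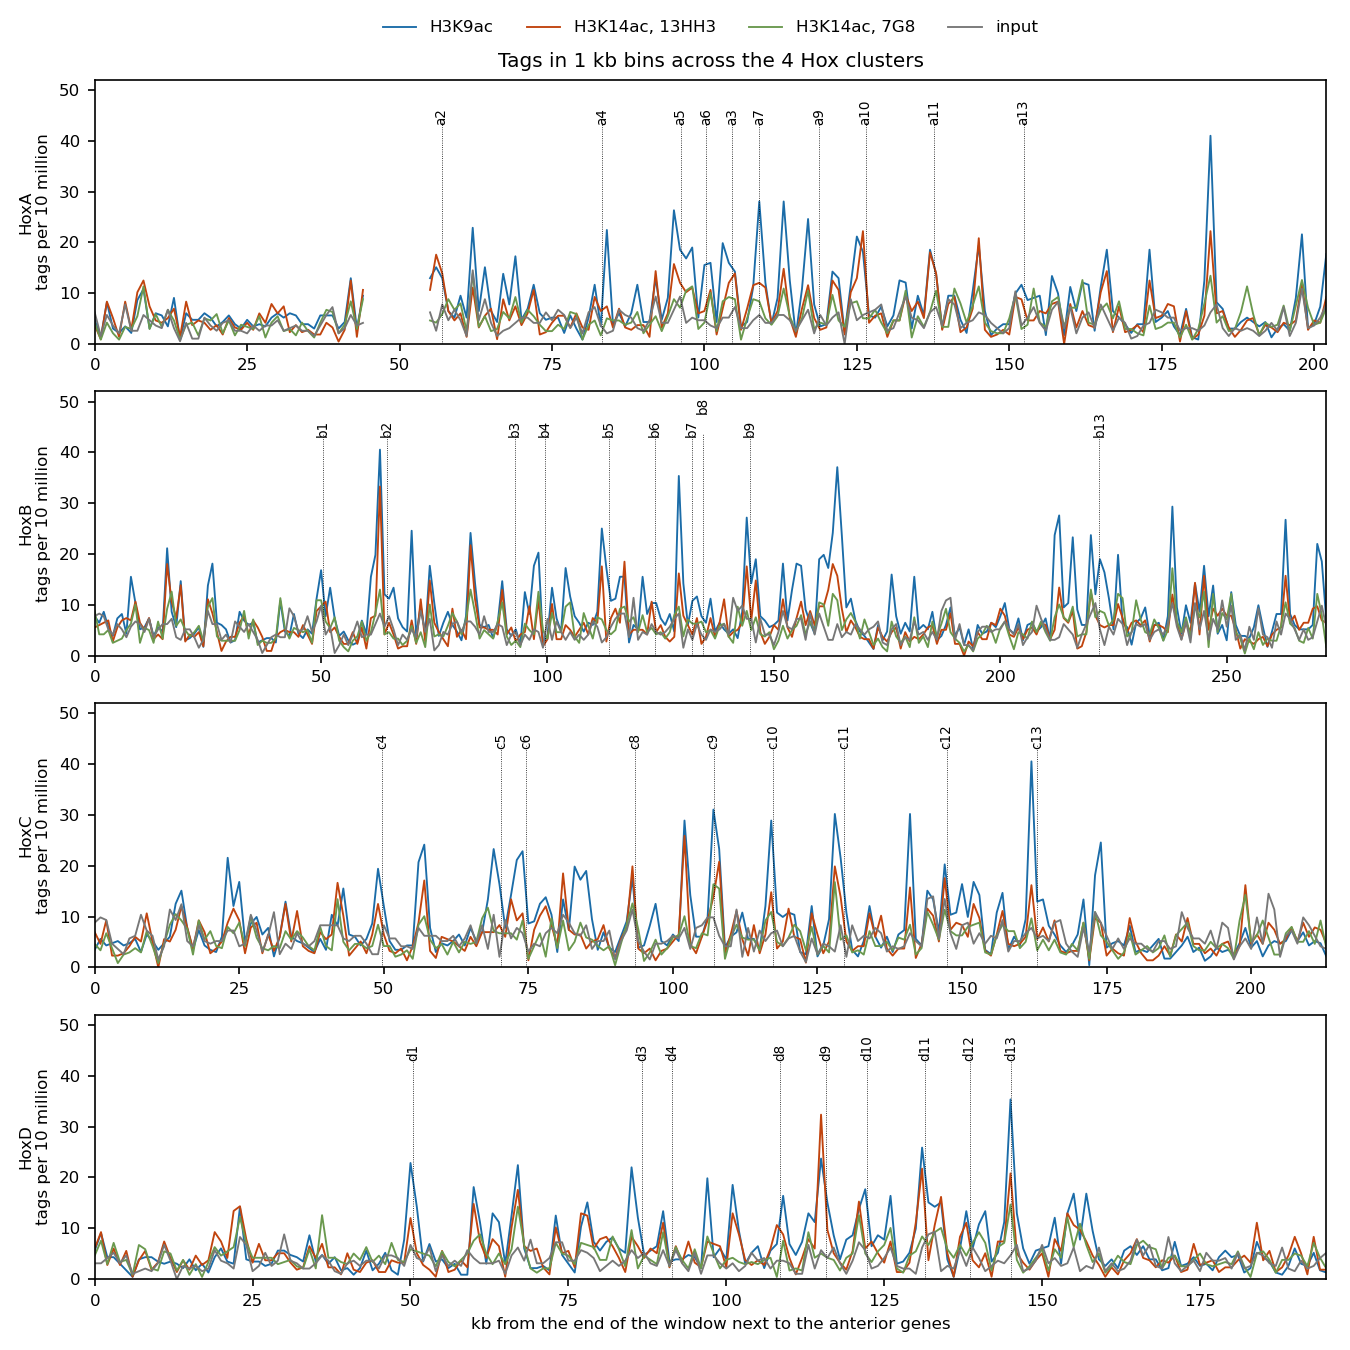
Tags per 10000000 in 1 kb bins (vertical axis) across HoxA, HoxB, HoxC and HoxD with 50 kb on each side, by distance in kb from the end of the window next to the anterior genes (horizontal axis). Lines are the 4 libraries, dotted lines mark the TSSs of 38 Hox genes and a gap in HoxA was left where bins are not shown; the tallest H3K9ac bins are beyond Hoxa13 in HoxA (41.0), at Hoxb2 in HoxB (40.5), at Hoxc13 in HoxC (40.5) and at Hoxd13 in HoxD (35.4).

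The 1 kb bins with the most H3K9ac tags were at or near Hox genes in 3 of the 4 windows. In HoxD this was the bin of the Hoxd13 TSS, chr2:74506001-74507000, with 82 tags of H3K9ac, 45 of 13HH3, 35 of 7G8 and 9 of input, and a log2 ratio of 2.92 (1.93 to 4.10). In HoxC it was chr15:102752001-102753000, over Hoxc13, with 94, 35, 23 and 15 tags and a ratio of 2.38 (1.59 to 3.28). In HoxB it was chr11:96214001-96215000, over Hoxb2, a hindbrain gene, with 94, 72, 31 and 16 tags and a ratio of 2.29 (1.52 to 3.16). The same HoxB bin also had the most 13HH3 tags of its window. In HoxA the tallest bin lay outside the cluster, 30627 bp beyond Hoxa13, at chr6:52241001-52242000, where the annotation has no gene. It had 95 tags of H3K9ac, 48 of 13HH3, 32 of 7G8 and 12 of input, and a ratio of 2.72 (1.85 to 3.72). No protein-coding TSS other than that of Hoxd13 lay in these bins.

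The gap between Hoxb9 and Hoxb13 held the widest H3K9ac peak of the 4 windows, 3150 bp at chr11:96111601-96114750. It covers the TSS of Gm53, a protein-coding gene that is no Hox gene and was singled out after its values were seen. Gm53 had 215 tags of H3K9ac, 96 of 13HH3, 88 of 7G8 and 34 of input within 2 kb, and a log2 ratio for H3K9ac of 2.40 (1.87 to 2.96).

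Within 2 kb the medians of H3K9ac showed no ordered change along the paralogue groups. A 13HH3 peak was near 41.7% of the anterior, 54.5% of the central and 81.3% of the posterior genes, beside 25.9% of all TSSs. With these shares moved the median CpG number within 1 kb, at 64.5, 74 and 103, and the median input, at 17.1, 19.2 and 23.6 tags per 10000000, and their part was not tested. The median log2 ratio of H3K9ac over input was 1.25 at the 12 anterior, 1.21 at the 11 central and 1.27 at the 16 posterior genes, and that of 13HH3 was 0.53, 0.54 and 0.62. Spearman's rho between the group number and the log2 ratio over 39 genes was -0.03 for H3K9ac, -0.02 for 13HH3 and 0.04 for 7G8 (Pearson r -0.06, 0.00 and 0.04). The clusters did not share a direction for H3K9ac. The rho was -0.64 over the 11 genes of HoxA, 0.21 over the 10 of HoxB, 0.12 over the 9 of HoxC and 0.33 over the 9 of HoxD. Within 1 kb of the TSS it was -0.25, 0.72, 0.40 and 0.27, so its size depended on the window. Over all 39 genes the rho within 1 kb was 0.22 for H3K9ac, 0.19 for 13HH3 and 0.12 for 7G8. By cluster it ran from -0.22 in HoxA to 0.58 in HoxC for 13HH3, and from -0.57 in HoxA to 0.85 in HoxD for 7G8. Members of a cluster are neighbours in the same library, so these values are descriptions. The chosen TSS of Hoxa3 lies between those of Hoxa6 and Hoxa7, away from its place by number.

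Retinoic acid response elements of the DR5 type are 2 half-sites in the same orientation with 5 bases between them. Accepted as a half-site were the letters AGGTCA, and also the letters AGTTCA, and also the letters GGGTCA, and also the letters GGTTCA. Both strands were searched, and no other motif was. The windows of the clusters with 50 kb on each side held 9 matches, 10.2 per Mb, while the whole genome held 8929, 3.49 per Mb. No member had a match within 2 kb of its TSS, where 1.28% of all TSSs had one. Of the 9 matches, 5 of those that begin with the letters GGTTCA and end with the letters AGTTCA are printed 5′ to 3′ on the strand of the match, with the half-sites in capitals, because they include the ones with the most H3K9ac.
In Hoxa3: GGTTCAagaagAGTTCA
In Hoxb3: GGTTCAagaagAGTTCA
Beyond Hoxb1: GGTTCAtagagAGTTCA
Beyond Hoxc4: GGTTCAccgagAGTTCA
In Hoxd3: GGTTCAagcagAGTTCA

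The Hoxa3 and Hoxb3 matches, at chr6:52125532-52125548 and chr11:96202550-96202566, are identical over all 17 bases. Both lie in introns, the first of Hoxa3 and 2700086A05Rik and the second of Hoxb3 and Gm11536. The 1 kb around the first had 32 tags of H3K9ac, 18 of 13HH3, 15 of 7G8 and 5 of input, and the 1 kb around the second had 27, 15, 11 and 4. The log2 ratio of H3K9ac over input was 2.41 (1.04 to 4.13) at the Hoxa3 match and 2.49 (0.97 to 4.47) at the Hoxb3 match, and for 13HH3 it was 1.68 (0.20 to 3.47) and 1.74 (0.09 to 3.79). The Hoxb3 match is near the alternative Hoxb3 start described above, so its tags are partly the same. The Hoxa3 match is likewise close to an annotated start, that of the lincRNA 2700086A05Rik at chr6:52125216, where H3K9ac within 2 kb had a ratio of 1.39 (0.68 to 2.15). At the other 7 matches no interval of H3K9ac lay above 0. The match beyond Hoxb1, 7032 bp from its TSS at chr11:96234090-96234106, had 20 tags of H3K9ac and 17 of input, a ratio of -0.03 (-1.04 to 0.99). The remaining printed matches, at chr15:102892145-102892161 beyond Hoxc4 and chr2:74579597-74579613 in an intron of Hoxd3, had 23 tags of H3K9ac against 13 of input and 4 against 7. A match to these letters is not a bound site, and counts this low leave wide intervals.

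Other lists of genes were described by log2 ratios within 2 kb with the pseudocount. Of the 9 TALE cofactors, which bind DNA together with Hox proteins, 8 were at least 2-fold over input for H3K9ac, with a median log2 ratio of 2.03. Pknox1 was the highest at 2.83, and Pknox2 the lowest at 0.82. Among 6 trithorax genes, which maintain Hox expression, all were past 2-fold, with a median of 2.84. Of 18 genes of the retinoic acid pathway, 10 were, with a median of 1.05, a share of 55.6% beside 54.5% of all TSSs. Rxrb, a receptor subunit, was at 2.51, whereas Rarb, a receptor gene induced by retinoic acid itself, was at -0.71 with 27 tags of H3K9ac and 38 of input. The 8 homeobox genes outside the clusters had a median of 0.88. Among them Gsx1, Gsx2 and Pdx1 were at 1.06, 0.66 and 0.70. Cdx1, Cdx2, Cdx4 and Evx1 were at 0.55, 1.29, 0.64 and 1.27. Evx2, next to Hoxd13, was the highest of the 8 for H3K9ac at 1.61. It also had 13HH3 at 1.40 and 7G8 at 1.10, with 107, 86, 77 and 28 tags. The lists were chosen with earlier results of these data known, and the medians stand beside 1.19 for all TSSs.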

How the data were processed

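ChIP-seq was done with 3 antibodies on mES cells and sequenced beside input, 1 library each. The authors aligned the reads to mm9 with ELAND and deposited the mapped positions of single tags, from which tag counts were made here. Reads were 36 bp. Tags at the same position and strand were counted once. This removed 738619 tags (3.30%) from 13HH3, while the other deposited files held none. Tags were moved 100 bp towards the fragment centre and counted around the TSS of the transcript with the longest coding sequence. Depth was 19313142 to 23837354 tags, and values were scaled to 10000000 tags. Medians and counts past 2-fold use log2 with a pseudocount of 1 tag per 10000000. Intervals of ratios are exact Clopper-Pearson intervals at 95%, and those of differences between ratios use a normal approximation. PCR copies without molecular identifiers are not independent, so intervals cover counting error only. Peaks were rebuilt, since MACS was not run here, from 400 bp windows with a Poisson p of 1e-05 or less against the highest of the genome-wide rate and the local input rates over 1, 5 and 10 kb. Genes named with values were, in each cluster, the first and last member, those with the highest and lowest H3K9ac and those with the highest 13HH3 and 7G8, and over all clusters those with the largest and smallest ratio of 13HH3 to H3K9ac. Also named were any protein-coding genes with a TSS in the 1 kb bin with the most H3K9ac tags of each window. One HoxA member enters the totals, and its own values are not reported here. Hoxa5, Hoxa6, Hoxa10, Hoxb2, Hoxb9, Hoxc9, Hoxd3, Gm53 and the genes of the other lists were named after their values were seen. Members and lists were chosen with earlier results of these data known. Scripts were tested on simulated data and run in Python 3.11.15. Numpy was at version 2.4.6, scipy at version 1.17.1, pandas at version 2.3.3 and matplotlib at version 3.10.9.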

Additional observations from a re-analysis of the deposited data

How the results depend on the processing

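Of 159 recalculated summary values and counts, 134 stayed and 25 moved. To stay meant within counting error, within 1.5 times the main count or, for rho, within an interval that takes the 39 genes as independent. No ratio with a main interval apart from 0 reversed, and counts and rho could not get this label. The rho of group number over all members changed sign with windows of 1 kb. It went from -0.03 to 0.22 for H3K9ac and from -0.02 to 0.19 for 13HH3. Scaling by the median 10 kb bin instead of total tags raised every log2 ratio over input by 0.38 for H3K9ac and 0.10 for 13HH3 and changed 7G8 by -0.03. Over all windows it gave 1.66 for H3K9ac, 0.79 for 13HH3, -0.88 for 13HH3 to H3K9ac, -1.44 for 7G8 to H3K9ac and -0.56 for 7G8 to 13HH3. The 13HH3 count past 2-fold became 11 (17.8% of all TSSs), H3K9ac in HoxA, HoxB, HoxC and HoxD became 1.36, 1.29, 1.13 and 1.5, and 13HH3 in HoxB became 0.37. With windows of 1 kb, 7G8 to H3K9ac was -1.14 and 7G8 to 13HH3 -0.51, and Hoxb4 reversed, to -0.39 for H3K9ac and -0.062 for 7G8. The count for 13HH3 was 3 with a pseudocount of 3 (11.6%). At 1.5-fold 19 members passed for 13HH3 (33.4% of all TSSs) and 6 for 7G8 (33.3%), and at 3-fold 6 for H3K9ac (39.5%) and 0 for 13HH3 (3.38%). With peaks at 1e-10, 9 members had a 13HH3 peak (7.21%) and 2 a 7G8 peak (4.28%), and 3 had a 7G8 peak within 1 kb (19.6%). With flanks of 25 kb the H3K9ac difference between cluster and flanks was 0.41 in HoxA, 0.52 in HoxC and 0.58 in HoxD, and with gene-free flanks 0.99 in HoxD. The cause was not tested. Among values of named genes and group medians, 389 stayed, 8 moved and 2 reversed. No paired analysis was possible because each antibody has 1 library and the result comes from no test. With 24 to 66 input tags per member, small ratios were not always detectable. For H3K9ac a log2 ratio of 0.58 at Hoxa13 was separated from input, and one of 0.57 at Hoxd4 was not.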
